A study of Saccharomyces cerevisiae with 8 samples.

Results

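To compare mRNA levels in a strain with impaired sumoylation with those in the strains that carry tagged Tfg1, the 2 libraries of ubc9-6 were set against the 4 libraries of Tfg1-HA and Tfg1-K60,61R-HA, 2 of each. These are 6 of the 8 libraries of the series; the other 2 come from the parental strain W303a, which did not enter the comparison and whose levels are given beside some genes as a description. All strains have the W303a background (MATa, with mutations in *ADE2*, *URA3*, *TRP1*, *LEU2*, *HIS3* and *CAN1*) and polyadenylated RNA was taken from mid-log cultures in SC medium, kept at 30°C. The ubc9-6 strain carries ubc9-1 as repeated copies in tandem at the *UBC9* locus, with a *TRP1* marker between them. The Tfg1-HA strain expresses Tfg1 with 6 HA repeats from its own locus, next to the *TRP1* marker of Kluyveromyces lactis. The Tfg1-K60,61R-HA strain has the same tag and marker, with Lys 60 and Lys 61 changed to Arg and an inadvertent N462Q substitution. Each genotype is thus 1 listed strain, so a difference between genotypes cannot be told apart from a difference between these isolates, and the ubc9-6 strain differs from the HA strains in the *UBC9* allele, the tag and the marker together.

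SUMO is a small protein that is joined to lysines of other proteins. In budding yeast SUMO is encoded by *SMT3*, is activated by the Aos1-Uba2 heterodimer, is transferred by the sole conjugating enzyme Ubc9, often with the help of a ligase such as Siz1, Nfi1 or Mms21, and is removed by the proteases Ulp1 and Ulp2. Many SUMO targets are bound to chromatin, among them transcription factors and the general factor TFIIF, of which Tfg1 is the largest subunit.

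Counts summed to between 26683432 and 34614232 in the 6 libraries, and 5907 of 6120 genes had enough counts to be tested. Levels are given as CPM, counts scaled to a common library size after TMM scaling, and differences as log2 fold changes of ubc9-6 minus the mean of the HA strains, with the SE of the edgeR fit. The first principal component of log2 CPM took 66.8% of the variance and set both ubc9-6 libraries apart from all HA libraries. The second took 19.7% and set replicate 1 of Tfg1-K60,61R-HA apart from the other 5 libraries. Replicates differed with an SD over genes of 0.139 in ubc9-6, 0.175 in Tfg1-HA and 0.292 in Tfg1-K60,61R-HA on the log2 scale.

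The marker gene *TRP1* and the *UBC9* gene were first read as a check of the labels. *TRP1*, which encodes an enzyme of tryptophan synthesis, was counted at 351 and 369 CPM in ubc9-6, against 18.3 and 18.2 CPM in Tfg1-HA and 19.2 and 18.4 CPM in Tfg1-K60,61R-HA. Only the ubc9-6 allele brings the marker gene of S. cerevisiae with it, so this difference (log2 fold change 4.28 ± 0.04) marks the allele and is no result. *UBC9* was at 184 and 191 CPM in ubc9-6 and at 82.2 to 83.7 CPM in the 4 HA libraries. The log2 fold change of *UBC9* was 1.18 ± 0.04 (adjusted p = 1.7e-05, edgeR), or 2.26-fold, in a strain that holds the gene in tandem. *LEU2*, whose mutant allele all strains share, rose by 0.81 ± 0.06 (adjusted p = 0.00036), with 319 and 371 CPM in ubc9-6 and 177 to 216 CPM in the HA libraries. *ADE2*, *URA3*, *HIS3* and *CAN1* were not called.

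A total of 2662 of the 5907 genes (45.1%) differed between ubc9-6 and the mean of the HA strains at a Benjamini-Hochberg adjusted p under 0.05 by the quasi-likelihood test of edgeR. They divided nearly evenly into 1318 genes that were higher (22.3%) and 1344 that were lower (22.8%). Most differences were small. The change exceeded 1.5-fold for 405 genes (6.86%), 262 higher (4.44%) and 143 lower (2.42%), and 2-fold for 154 genes (2.61%), 107 higher (1.81%) and 47 lower (0.796%). Both ubc9-6 libraries lay above or below all 4 HA libraries for 3653 genes (61.8%), 30.8% above and 31.0% below. The number called fell to 1145 without replicate 1 of ubc9-6 and to 1345 without replicate 2, where the remaining library was assumed to vary like the other strains. Against each HA strain alone, 2030 genes (34.4%) were called with Tfg1-HA, 16.8% higher and 17.6% lower, and 2413 (40.8%) with Tfg1-K60,61R-HA. Both counts rest on the same ubc9-6 libraries. Between the HA strains no gene was called in the same fit, while 437 genes had an unadjusted p under 0.05. DESeq2 called 27 of the 1097 genes to which it gave an adjusted p in this comparison. Without replicate 2 of Tfg1-K60,61R-HA, which leaves the library that stood apart as the only library of its strain, 196 genes were called between the HA strains.

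**Figure D1:**
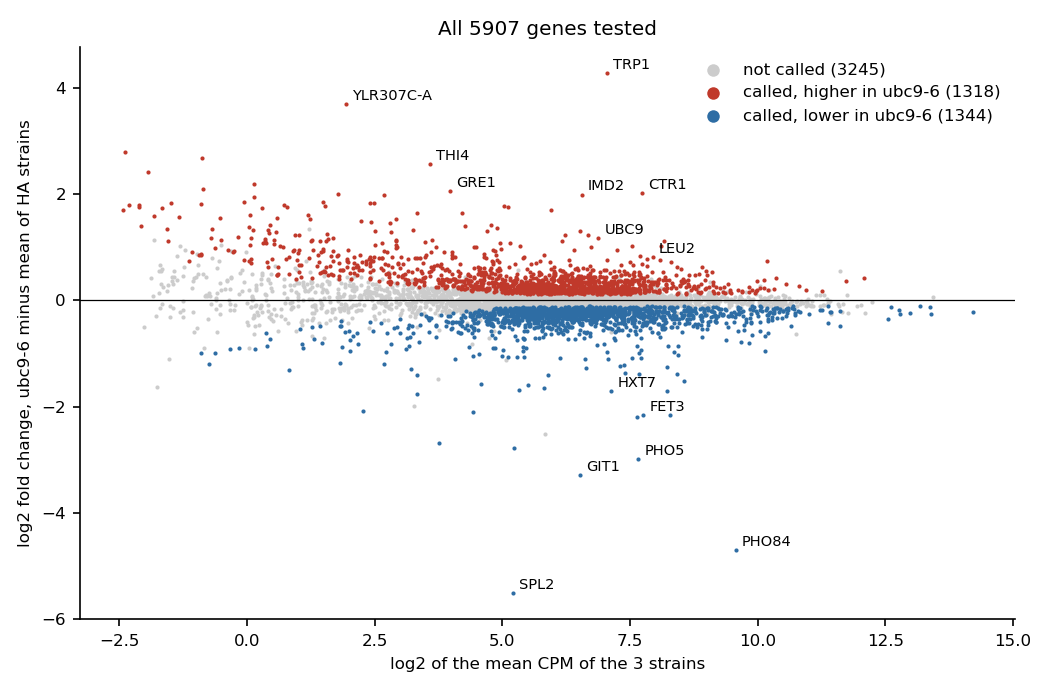
Log2 fold change of ubc9-6 minus the mean of the HA strains (vertical axis) against the log2 of the mean CPM of the 3 strains (horizontal axis), 1 point for each of 5907 genes. Genes called higher (1318, red) and lower (1344, blue) lie close to 0 for the most part, with TRP1 and YLR307C-A at the top and SPL2 and PHO84 at the bottom.

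The lowest fold changes were in genes of phosphate supply. Yeast senses phosphate through the Pho80-Pho85 kinase and the transcription factor Pho4, which binds CACGTG, and phosphate shortage turns on phosphatases, transporters and the vacuolar polyphosphate polymerase. Of the 23 genes of this regulon, 16 were lower in ubc9-6, 1 was higher and 6 were not called, with a median log2 fold change of -0.84 against -0.0018 over all genes tested, of which 22.8% were lower. The list was chosen with earlier results of these data known.

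*SPL2*, a small protein that restrains low-affinity phosphate uptake, had 1.13 and 1.19 CPM in ubc9-6. It had 53.5 and 28.5 CPM in Tfg1-HA and 84.7 and 52.8 CPM in Tfg1-K60,61R-HA. The groups were far apart, by 45.7-fold (log2 fold change -5.51 ± 0.45, adjusted p = 0.00041). The 250 bases before the *SPL2* coding start hold the Pho4 hexamer at 3 places, shown here in capitals because *SPL2* had the lowest fold change of all genes.
SPL2 (chrVIII:375230-375259, minus strand, S288C reference): aaatgatgtacgCACGTGggcgaaagttca
SPL2 (chrVIII:375173-375202, minus strand): tctctcttttccCACGTGctccgctctctt
SPL2 (chrVIII:375114-375143, minus strand): agtcactgcagcCACGTGcctagatctatt
CACGTG reads the same on both strands. It was in 6 of the 23 promoter windows of the regulon (26.1%) and in 2.94% of all 6115 windows of 300 bases, from 250 before to 50 after the coding start. Of the 6 genes with the hexamer 4 fell, with a median log2 fold change of -1.11. Of the 17 without it in this window 12 fell, with a median of -0.84, and *PHO84*, *PHO5* and *GIT1* are among these 17. Bases further upstream were not searched, so these genes may hold the hexamer there.

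*PHO84*, the main high-affinity phosphate transporter, was at 43.6 and 41.2 CPM in ubc9-6. Its level was 1235 and 631 CPM in Tfg1-HA and 1470 and 1126 CPM in Tfg1-K60,61R-HA, which puts ubc9-6 26.0-fold lower (log2 fold change -4.70 ± 0.32, adjusted p = 0.00033). The sodium-phosphate symporter gene *PHO89* was at 6.30 and 5.91 CPM in ubc9-6 and ranged from 9.46 to 68.6 CPM in the HA libraries. Its call (-2.11 ± 0.69, adjusted p = 0.045) was the weakest of the group and was lost without either ubc9-6 library or without replicate 1 of Tfg1-HA (adjusted p = 0.17, 0.18 and 0.10), and with the HA libraries as 1 group (adjusted p = 0.052). *GIT1*, which takes up glycerophosphoinositol, fell by 3.30 ± 0.20 on the log2 scale, from 92.0 to 161 CPM in the HA libraries to 13.3 and 13.2 CPM.

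The secreted acid phosphatase gene *PHO5* was at 34.0 and 36.0 CPM in ubc9-6, against 288 and 170 CPM in Tfg1-HA and 349 and 332 CPM in Tfg1-K60,61R-HA (-2.997 ± 0.22, adjusted p = 0.00034). *PHO11* and *PHO12*, which are near-identical copies whose reads the counting could split, fell by 2.69 and 2.79. The polyphosphate polymerase subunit gene *VTC3* fell by 2.16 ± 0.23, from 282 to 533 CPM in the HA libraries to 95.1 and 92.9 CPM, and *VTC1* and *VTC4* fell by 1.71 and 1.52. The regulators had smaller differences. *PHO4* and *PHO80* were not called (-0.05 and 0.06), *PHO85* was lower by 0.23 and the inhibitor gene *PHO81* was lower by 0.84. *PHO90*, a low-affinity transporter gene, was the only member called higher (0.41). Within the HA strains, replicate 2 of Tfg1-HA had the lowest value of the 4 libraries for *SPL2*, *PHO84*, *GIT1*, *PHO5*, *PHO89* and *VTC3*, and both ubc9-6 libraries lay below it for each.

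W303a gave levels of these genes near those of ubc9-6. *PHO84* was at 56.7 and 80.9 CPM in W303a, *SPL2* at 1.81 and 2.17 CPM, *GIT1* at 15.2 and 15.9 CPM, *PHO5* at 42.2 and 50.02 CPM, and *VTC3* at 107 and 123 CPM. All of these lie below the lowest HA library of the gene. These genes were thus low in both untagged strains and high in both tagged strains. W303a was not in the fit, and no test was made against it.

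**Figure D2:**
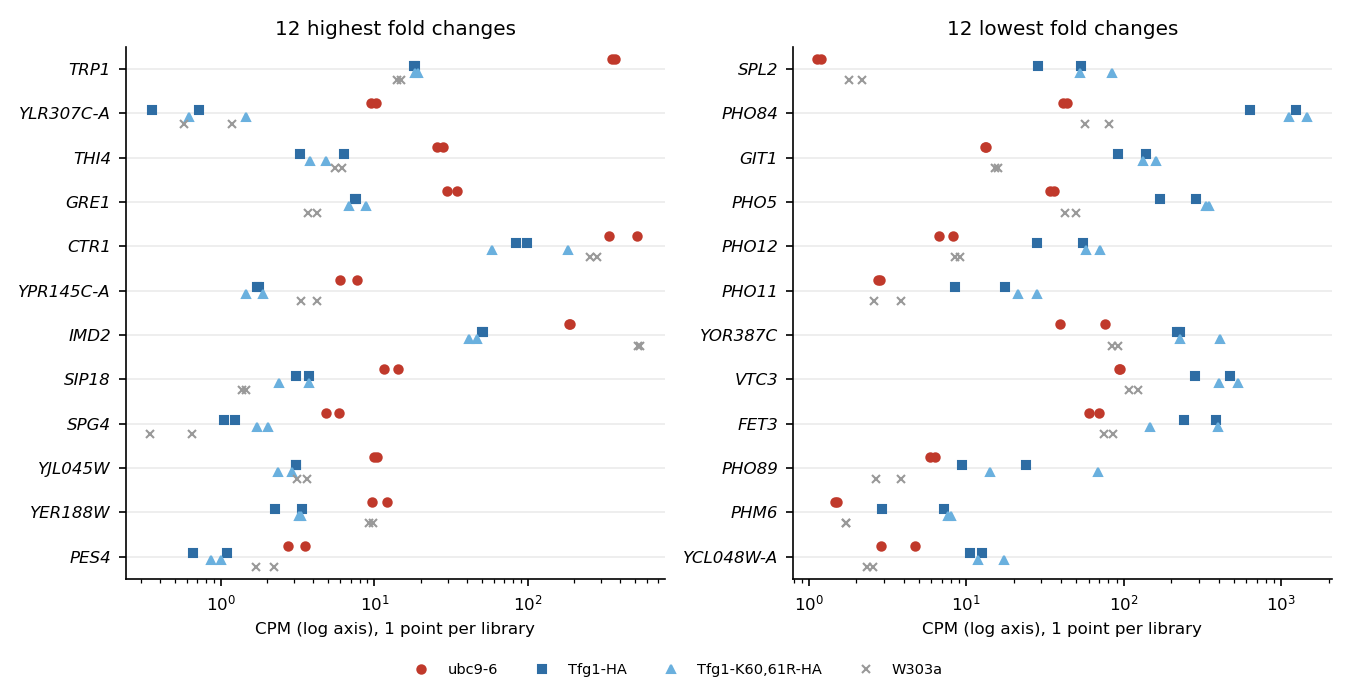
CPM on a log axis in each of the 8 libraries for the 12 called genes with the highest and the 12 with the lowest log2 fold change, all of them averaging 50 counts or more and with no overlap between ubc9-6 and HA libraries. Red circles are ubc9-6, blue symbols the HA strains and grey crosses W303a, which lie nearer to ubc9-6 for 12 of the 12 lowest genes and for 5 of the 12 highest.

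The same reading was made for all genes with large differences. The mean W303a level was nearer to ubc9-6 than to the HA libraries, on a log2 scale with 0.5 CPM added, for 36 of the 47 genes lower by more than 2-fold and for 45 of the 107 genes higher by more than 2-fold. Among the 12 highest, W303a was nearer to ubc9-6 for *CTR1*, *IMD2*, *YPR145C-A*, *YER188W* and *PES4*, and nearer to the HA strains for the other 7, *TRP1* included.

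Apart from the marker, the genes with the highest fold changes were a mixed group. *YLR307C-A*, an uncharacterized gene, had 9.54 and 10.2 CPM in ubc9-6 and 0.357 to 1.47 CPM in the HA libraries, a difference of 3.70 ± 0.28 (adjusted p = 0.00035). *THI4*, which makes the thiazole part of thiamine, was at 25.8 and 28.1 CPM in ubc9-6, 3.28 and 6.36 CPM in Tfg1-HA, 3.82 and 4.81 CPM in Tfg1-K60,61R-HA and 5.57 and 6.15 CPM in W303a. Its log2 fold change was 2.56 ± 0.22 (adjusted p = 0.00047), and ubc9-6 was above all other libraries. *GRE1* and *SIP18*, a related pair of genes for stress-induced hydrophilic proteins, rose by 2.06 ± 0.11 and 1.98 ± 0.18. *GRE1* had 29.8 and 34.3 CPM in ubc9-6, 6.85 to 8.76 CPM in the HA libraries and 4.23 and 3.71 CPM in W303a. *SPG4*, named for survival in stationary phase, rose by 1.86 ± 0.15, and *YJL045W*, a minor isoform of the succinate dehydrogenase flavoprotein, by 1.83 ± 0.11.

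*IMD2* encodes IMP dehydrogenase, which makes the precursor of GTP and responds to guanine nucleotide supply. It was at 186 and 189 CPM in ubc9-6, at 50.3 and 50.6 CPM in Tfg1-HA and at 41.2 and 46.9 CPM in Tfg1-K60,61R-HA (1.99 ± 0.05, adjusted p = 8.6e-06). W303a had 540 and 523 CPM of *IMD2*, so that ubc9-6 lay between the parental and the tagged strains. The related genes *IMD3* and *IMD4* followed the same order with smaller differences of 0.34 ± 0.04 and 0.48 ± 0.08. Of 19 genes of purine synthesis, 7 rose (36.8%, beside 22.3% of all genes) and none fell, with a median of 0.14. Without either ubc9-6 library 4 rose.

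In the iron regulon of 30 genes, 5 rose, 5 fell and 20 were not called, which is 16.7% each way and below the shares of all genes (22.3% and 22.8%). Some members nevertheless had large changes. *FET3* and *FTR1*, which form the high-affinity iron uptake complex, fell by 2.16 ± 0.42 and 1.23 ± 0.29. *FET3* was at 59.95 and 70.03 CPM in ubc9-6, 384 and 240 CPM in Tfg1-HA, 396 and 146 CPM in Tfg1-K60,61R-HA and 85.5 and 75.1 CPM in W303a. Its call was lost without replicate 1 of ubc9-6 (adjusted p = 0.06), and that of *FTR1* without either ubc9-6 library (adjusted p = 0.10 and 0.072). The copper transporter gene *CTR1* and the metal reductase gene *FRE1* rose by 2.02 ± 0.39 and 1.24 ± 0.21. *CTR1* varied between replicates, with 337 and 514 CPM in ubc9-6, 98.9 and 83.6 CPM in Tfg1-HA and 58.1 and 184 CPM in Tfg1-K60,61R-HA, and missed the threshold without replicate 2 of ubc9-6 (adjusted p = 0.053). More iron genes fell without replicate 2 of Tfg1-K60,61R-HA and fewer without replicate 1 of ubc9-6. The number over all genes moved the same way but less in proportion, and each of these fits leaves a single library of a strain. The share of iron genes called lower thus depended on which libraries were included.

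Of 17 thiamine genes, 7 rose and 7 fell, or 41.2% each way, beside 22.3% and 22.8% of all genes. Of the 17 genes, 4 overlap another gene or have a near-identical copy, and with such genes left out 4 rose and 7 fell. Besides *THI4* the largest rise was that of *THI5* (1.74 ± 0.20), which has 3 near-identical copies, while *PET18* and *THI73* fell by 1.69 ± 0.33 and 1.58 ± 0.47. *PET18* and *THI73* differed strongly between replicates of the HA strains (THI73 17.9 and 48.0 CPM in Tfg1-HA), and both calls were lost without either ubc9-6 library. With 1 ubc9-6 library left out, only 1 thiamine gene fell.

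Among 20 tested genes for hexose transport and its regulation, 10 rose and 4 fell, beside 22.3% and 22.8% of all genes. Of the 20 genes, 6 overlap another gene or have a near-identical copy, and with such genes left out 7 rose and 2 fell. The high-affinity transporter genes *HXT7* and *HXT6*, which are near-identical copies, fell by 1.71 ± 0.08 and 1.66 ± 0.09. *HXT7* was at 52.7 and 59.3 CPM in ubc9-6, 167 to 192 CPM in the HA libraries and 42.0 and 33.9 CPM in W303a. *HXT10* rose by 1.86 ± 0.32 from less than 1 CPM. The number of hexose genes that rose was 5 and 4 without replicate 1 and 2 of ubc9-6.

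The fold change followed the coding length of the gene, and this bears on each group of genes described next. The tested genes were sorted by coding length and divided into 10 bins of equal size. In the bin with the shortest coding length (up to 378 bases) the median log2 fold change was -0.10, with 9.81% of genes called higher and 30.3% lower. In the bin with the longest (from 2844 bases) the median was 0.125, with 44.8% called higher and 6.94% lower. Set against W303a in the same bins, the HA libraries ran from 0.13 to -0.12 and ubc9-6 from 0.055 to 0.019. The fold change also fell with GC content, from a median of 0.038 among the genes with the lowest GC content to -0.13 among those with the highest. A second fit, added after this was seen, removed the trend over coding length and GC content from each library. It called 2516 genes, 1097 higher and 1419 lower, of which 2162 were also called without the correction. The shares of all genes called higher and lower, beside which the counts of each gene group stand, were 22.3% and 22.8% in the first fit, 18.6% and 24.0% with the trend removed, 9.8% and 9.52% without replicate 1 of ubc9-6, and 10.6% and 12.1% without replicate 2.

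**Figure D3:**
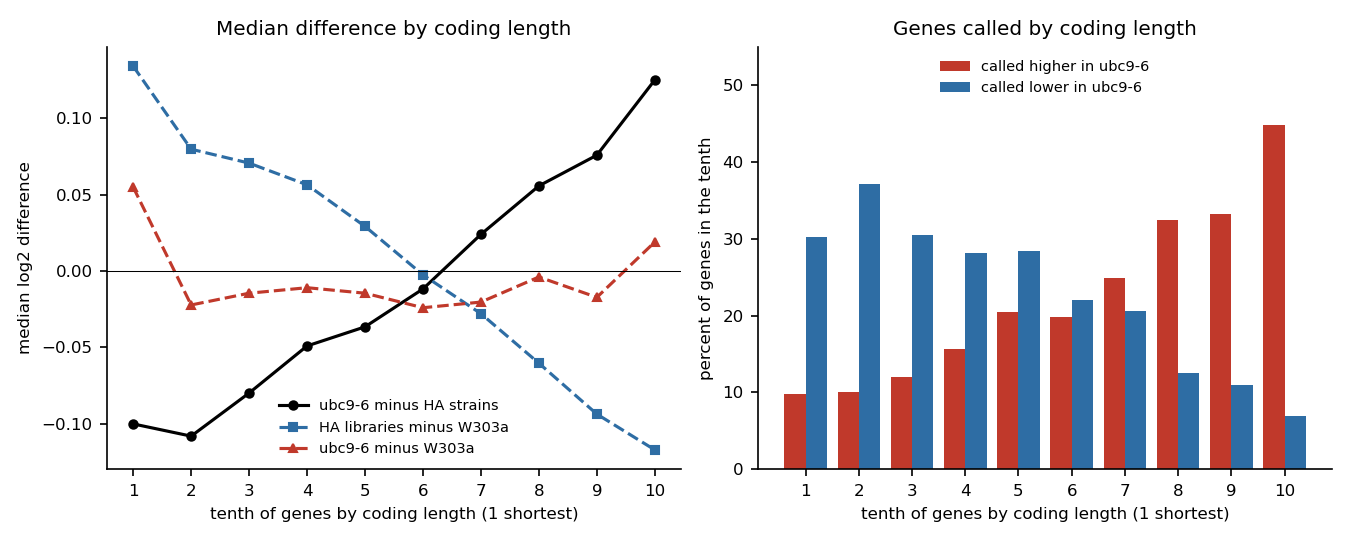
Left, median log2 difference in 10 bins of the tested genes by coding length, for ubc9-6 minus the HA strains (black), the HA libraries minus W303a (blue) and ubc9-6 minus W303a (red). Right, percent of genes in each bin called higher (red) or lower (blue) in ubc9-6 than in the HA strains, from 9.81% and 30.3% in the shortest to 44.8% and 6.94% in the longest.

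Ribosome biogenesis genes were higher in ubc9-6. These genes encode the factors that process ribosomal RNA and assemble the subunits, and many of their promoters share the PAC element (GATGAG) and the RRPE element (AAAAATTTT). Of 110 members 78 rose, 1 fell and 31 were not called, with a median of 0.25, against 22.3% of all genes called higher. With the length and GC trend removed, 70 rose and none fell, with a median of 0.21. Without replicate 1 of ubc9-6 the number that rose was 37, and without replicate 2 it was 62. The members with the largest changes were *UTP10* (0.65 ± 0.05), a subunit of the small-subunit processome, the RNA helicase gene *DBP2* (0.64 ± 0.07), *ENP2* (0.56 ± 0.05) and *SDA1* (0.54 ± 0.06). *UTP10* was at 310 and 295 CPM in ubc9-6, 208 and 192 CPM in Tfg1-HA, 181 and 190 CPM in Tfg1-K60,61R-HA and 309 and 314 CPM in W303a. The median log2 difference from W303a over the list was -0.43 in the HA libraries and -0.17 in ubc9-6.

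The sites of *UTP10* and *DBP2* are shown because these genes had the largest changes of the list, with the element in capitals.
UTP10, PAC (chrX:217392-217421, minus strand): ttttcagttagcGATGAGctagatattttc
UTP10, RRPE (chrX:217407-217436, minus strand): aagcaaagaaAAAAATTTTcagttagcgat
DBP2, PAC in reverse complement (chrXIV:413472-413501, plus strand): tttacgccgatgCTCATCgcagaaaatttt
DBP2, RRPE in reverse complement (chrXIV:413484-413513, plus strand): ctcatcgcagAAAATTTTTccttcagttta
Searched on both strands, GATGAG was in 99 of the 110 windows of the list (90.0%) and in 20.3% of all windows, and AAAAATTTT was in 57.3% and 6.93%. Of the 99 genes with GATGAG 74 rose, and of the 11 without it 4 rose. Outside the list, the windows of genes called higher held GATGAG in 25.3% and AAAAATTTT in 9.85% of cases, while those of genes called lower held them in 14.5% and 4.32%. Windows overlap for genes that share a promoter, and the letters alone do not show that a factor binds.

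The subunits of RNA polymerases I and III, which make ribosomal RNA and transfer RNA, and their initiation factors, together 35 genes, included 11 that rose (31.4%) and 1 that fell (2.86%), beside 22.3% and 22.8% of all genes. The largest changes were those of *RPO31* (0.43 ± 0.06), the largest subunit of RNA polymerase III, the initiation factor gene *RRN3* (0.41 ± 0.05) and *RPA190* (0.39 ± 0.06). With the trend removed 7 rose, a share near the 18.6% of all genes, and 3 fell, and 5 and 7 rose without replicate 1 and 2 of ubc9-6. The 12 subunits of RNA polymerase II included 7 genes that fell and none that rose, with a median of -0.14. Some of the 12, *RPB8* and *RPC10* among them, are shared with RNA polymerases I and III and were counted only here. The genes of the largest subunits, *RPO21* and *RPB2*, were not called (0.11 and 0.04). *RPB8* fell by 0.35 ± 0.05 and *RPB7* by 0.31 ± 0.03. The RNA polymerase II list has a median coding length of 492 bases, against 1194 over all genes, and 4 of its genes fell with the trend removed and 3 without either ubc9-6 library. Of 29 general transcription factor genes 5 were higher and 5 lower, or 17.2% each way, which is below the shares of all genes. Without either ubc9-6 library 1 was higher and 3 were lower. *TOA2*, the small subunit of TFIIA, fell by 0.36 ± 0.04, and *TAF4* fell by 0.31 ± 0.04.

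Cytosolic ribosomal protein genes (RPGs) gave a call that depended on the length correction. Of 137 RPGs 50 fell (36.5%, beside 22.8% of all genes) and none rose, with a median of -0.082. With the trend removed 13 fell and 6 rose, with a median of -0.027. *RPS9A*, which encodes a protein of the small subunit, had the lowest fold change of the RPGs (-0.86 ± 0.06, adjusted p = 0.00033), with 235 and 213 CPM in ubc9-6, 372 to 427 CPM in the HA libraries and 362 and 367 CPM in W303a. *RPS22B* fell by 0.50 ± 0.05. Without replicate 1 and 2 of ubc9-6, 21 and 15 RPGs fell. Of 10 genes listed as regulators of RPGs 4 rose, 2 fell and 4 were not called. *TOD6*, a repressor that binds PAC, the element named above for ribosome biogenesis promoters, and the coactivator gene *IFH1* rose by 0.56 ± 0.06 and 0.50 ± 0.08. *DOT6* rose by 0.24 and *CRF1* by 0.23, though the ID of *CRF1* joins loci on 2 chromosomes and its value is uncertain. *FPR1*, a prolyl isomerase, fell by 0.39 ± 0.06 and *HMO1*, a high mobility group protein of these promoters, fell by 0.21 ± 0.04.

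Mitochondrial translation and respiration genes were lower in ubc9-6 than in the HA strains. All but 3 of 54 mitochondrial ribosomal protein genes fell (51, with none higher), with a median of -0.28 and the lowest member, *MRPL39*, at -0.50. *MRPL39* was at 39.6 and 41.2 CPM in ubc9-6, 57.3 and 60.1 CPM in Tfg1-HA, 56.9 and 55.01 CPM in Tfg1-K60,61R-HA and 52.0 and 46.3 CPM in W303a (adjusted p = 0.00062). With the trend removed 42 of the 54 fell, and 21 and 27 fell without replicate 1 and 2 of ubc9-6. For the tricarboxylic acid cycle and the respiratory chain, 39 of 52 genes fell and none rose, with a median of -0.31, and 34 fell with the trend removed. Without replicate 1 of ubc9-6, 21 of these fell. *COX6*, a subunit of cytochrome c oxidase, was at 214 and 228 CPM in ubc9-6 and 300 to 336 CPM in the HA libraries (-0.54 ± 0.06). W303a had 194 and 193 CPM of *COX6*. *QCR10*, *SDH3* and *SDH4* fell by 0.51, 0.48 and 0.47. Set against W303a, the respiratory list had a median log2 difference of 0.60 in the HA libraries and 0.28 in ubc9-6. For the mitochondrial ribosomal protein genes these medians were 0.14 and -0.15.

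General stress genes under the factors Msn2 and Msn4 were also lower for the most part, with 27 of 40 lower (67.5%, beside 22.8% of all genes), 5 higher and a median of -0.35. The members that fell most were genes of glycogen and trehalose metabolism. *GSY1*, a glycogen synthase, fell by 1.41 ± 0.12 and *GPH1*, glycogen phosphorylase, fell by 1.26 ± 0.10. *GPH1* had 153 and 157 CPM in ubc9-6, 326 and 362 CPM in Tfg1-HA, 448 and 351 CPM in Tfg1-K60,61R-HA and 68.3 and 66.5 CPM in W303a. *GRE1* and *SIP18*, which belong to the same list, had the opposite direction. The count of stress genes that fell was 25 with the trend removed and 15 without replicate 1 of ubc9-6. The median log2 difference from W303a over the list was 1.12 in the HA libraries and 0.69 in ubc9-6.

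**Figure D4:**
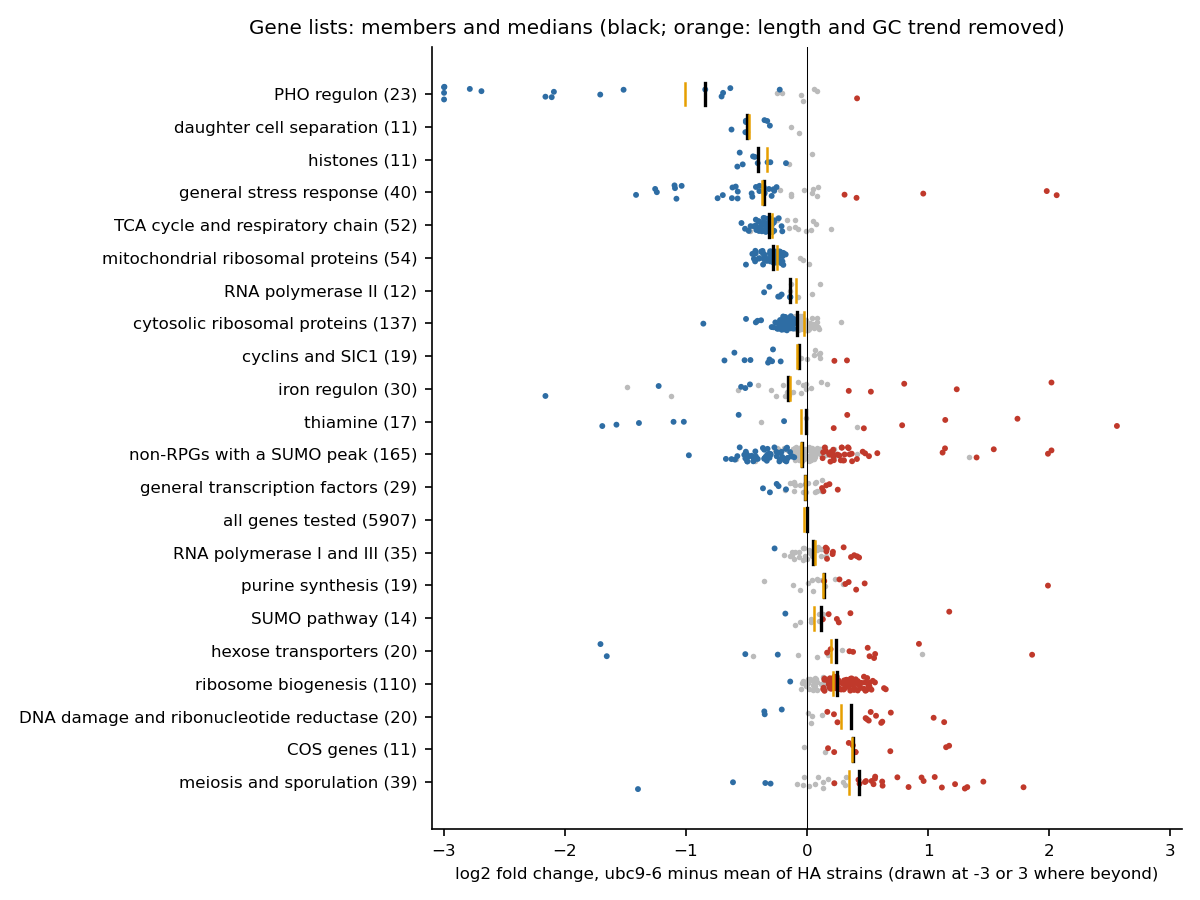
Log2 fold change of ubc9-6 minus the mean of the HA strains for each tested member of 21 lists, with the number tested in brackets; called members are red (higher) or blue (lower), the others grey, and members beyond the axis (SPL2, PHO84 and GIT1) are drawn at its left end. Black bars are medians and orange bars medians with the length and GC trend removed, from -0.84 for the PHO regulon to 0.43 for meiosis and sporulation.

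Of 11 histone genes 9 fell (81.8%, beside 22.8% of all genes) and none rose, with a median of -0.41, and the same number fell with the trend removed. *HTB2*, a gene for histone H2B, was at 366 and 373 CPM in ubc9-6, 524 to 545 CPM in the HA libraries and 494 and 461 CPM in W303a (-0.53 ± 0.04, adjusted p = 0.00034). *HHT1*, for histone H3, fell by 0.56 ± 0.05 and *HTZ1*, for the variant H2A.Z, by 0.45 ± 0.06. Of 11 genes for separation of the daughter cell, 9 also fell (81.8%) and none rose, also without any single library and with the trend removed. Chitinase *CTS1*, which splits mother from daughter, had 829 and 894 CPM in ubc9-6, 1281 to 1383 CPM in the HA libraries and 1202 and 1149 CPM in W303a (-0.62 ± 0.05). *DSE1*, *DSE3* and *SCW11* each fell by 0.51. Both ubc9-6 libraries were below the 6 other libraries for *HTB2*, *CTS1*, *DSE1*, *DSE3* and *SCW11*. Among 19 genes of cyclins and cell-cycle regulators 9 fell (47.4%), 2 rose and 8 were not called, with a median of -0.06 and with the lowest values for the S-phase cyclin gene *CLB6* (-0.68 ± 0.11) and for *PCL9* (-0.60 ± 0.05).

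Of 20 genes of DNA damage and ribonucleotide reductase, 13 rose (65.0%, beside 22.3% of all genes) and 3 fell, with a median of 0.37, and 11 rose with the trend removed (18.6% of all genes). *RNR2*, the small subunit of ribonucleotide reductase, was at 625 and 633 CPM in ubc9-6, 385 and 386 CPM in Tfg1-HA, 451 and 414 CPM in Tfg1-K60,61R-HA and 454 and 426 CPM in W303a (0.62 ± 0.04, adjusted p = 0.00033). *MAG1*, a DNA glycosylase, rose by 0.69 ± 0.07, from 14.0 to 15.8 CPM to 24.9 and 23.3 CPM. For both genes ubc9-6 was above all other libraries. *RNR3*, the damage-induced large subunit, had 18.9 and 19.4 CPM in ubc9-6 and 7.06, 7.25 and 6.97 CPM in 3 HA libraries, but 14.2 CPM in replicate 1 of Tfg1-K60,61R-HA (1.13 ± 0.23). *HUG1*, an inhibitor of ribonucleotide reductase, overlapped between the groups, with 12.5 CPM in that library against 9.94 and 12.1 CPM in ubc9-6. Its call (1.05 ± 0.36, adjusted p = 0.049) was lost with DESeq2, with the replicate block, with the HA libraries as 1 group and without either ubc9-6 or either Tfg1-HA library. The number of genes of the list that rose was 8 without replicate 2 of ubc9-6.

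Of 39 tested genes of meiosis and sporulation, 22 rose (56.4%, beside 22.3% of all genes) and 4 fell, with a median of 0.43. *DIT1*, of spore wall synthesis, was at 11.9 and 12.4 CPM in ubc9-6, 4.08 to 4.66 CPM in the HA libraries and 4.997 and 6.15 CPM in W303a (1.46 ± 0.09, adjusted p = 0.00029). *SPR3*, a sporulation septin, rose by 1.33 ± 0.19 from below 1 CPM. *SPS4* had the opposite direction (-1.40 ± 0.23). Genes within 20 kb of a chromosome end included 80 higher (41.7%), 21 lower (10.9%) and 91 not called of 192, with a median of 0.22. Of the 192 genes, 81 overlap another gene or have a near-identical copy, and with such genes left out 40 rose and 19 fell. The COS genes, a subtelomeric family, rose in 9 of 11 cases. Of these 11 genes, 6 have a near-identical copy or overlap another gene, and with such genes left out 3 rose. *COS10*, which has no near-identical copy, had 36.6 and 38.5 CPM in ubc9-6, 20.4 to 24.7 CPM in the HA libraries and 37.9 and 38.2 CPM in W303a (0.69 ± 0.07). Of 32 tested Ty element genes, all of them near-identical copies, 22 rose. Low levels went with higher fold changes over all genes, with a median of 0.23 in the lowest of 10 bins by mean CPM. Without replicate 1 and 2 of ubc9-6, 14 and 12 meiosis genes, 6 and 4 COS genes, 40 and 42 genes near chromosome ends and 14 and 13 Ty genes rose.

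All strains are MATa. Of 7 a-specific genes 4 fell (57.1%, beside 22.8% of all genes), the pheromone genes *MFA1* (-0.67 ± 0.06) and *MFA2* (-0.60 ± 0.07) among them. Of 4 alpha-specific genes 3 rose, beside 22.3% of all genes, and 1 and 2 rose without replicate 1 and 2 of ubc9-6. The alpha-factor gene *MF(ALPHA)1* had 2.23 and 2.11 CPM in ubc9-6, 0.417 to 0.654 CPM in the HA libraries and 1.88 and 2.85 CPM in W303a (1.95 ± 0.20). *STE3*, the receptor for a-factor, had 3.76 and 3.71 CPM against 1.16 to 2.21 CPM (1.13 ± 0.23), and its call was lost without either ubc9-6 library. The receptor gene *STE2*, which defines a cells, had 391.8 and 357.9 CPM in ubc9-6 and 378 to 466 CPM in the HA libraries and was not called.

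Genes of the SUMO pathway itself differed by small amounts. Besides *UBC9*, 5 of the 14 members rose, 1 fell and 7 were not called. With *UBC9* counted, 42.9% rose and 7.14% fell, beside 22.3% and 22.8% of all genes. The protease gene *ULP1* had 89.6 and 94.8 CPM in ubc9-6, 72.6 and 73.4 CPM in Tfg1-HA, 71.3 and 70.1 CPM in Tfg1-K60,61R-HA and 83.0 and 91.8 CPM in W303a (0.36 ± 0.04, adjusted p = 0.001). The ligase gene *SIZ1* rose by 0.26 ± 0.05, *ULP2* by 0.25 ± 0.05, *SLX5*, a subunit of a SUMO-targeted ubiquitin ligase, by 0.18 ± 0.04, and *UBA2* by 0.13 ± 0.04. *AOS1* fell by 0.18 ± 0.04. Over the 14 members, the median log2 difference from W303a was -0.17 in the HA libraries and -0.0058 in ubc9-6. With the trend removed, *UBA2* and *ULP2* were no longer called (adjusted p = 0.32 and 0.205). The SUMO gene *SMT3* was at 178 and 185 CPM in ubc9-6 and 188 to 213 CPM in the HA libraries, below all 4 but not called (-0.10 ± 0.06, adjusted p = 0.21). Without replicate 1 and 2 of ubc9-6, 3 and 2 members were called higher, and *UBC9* and *ULP1* were among them each time.

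*TFG1* was lower in the tagged strains than in both untagged strains. It was at 193 and 196 CPM in ubc9-6, 173 and 168 CPM in Tfg1-HA, 162 and 162 CPM in Tfg1-K60,61R-HA and 197 and 202 CPM in W303a (0.23 ± 0.04, adjusted p = 0.0039). The third TFIIF subunit gene *TAF14* fell by 0.18 ± 0.04, and *TFG2* was not called (-0.06 ± 0.05). The call of *TAF14* was lost without either ubc9-6 library (adjusted p = 0.073 and 0.078).

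**Figure D5:**
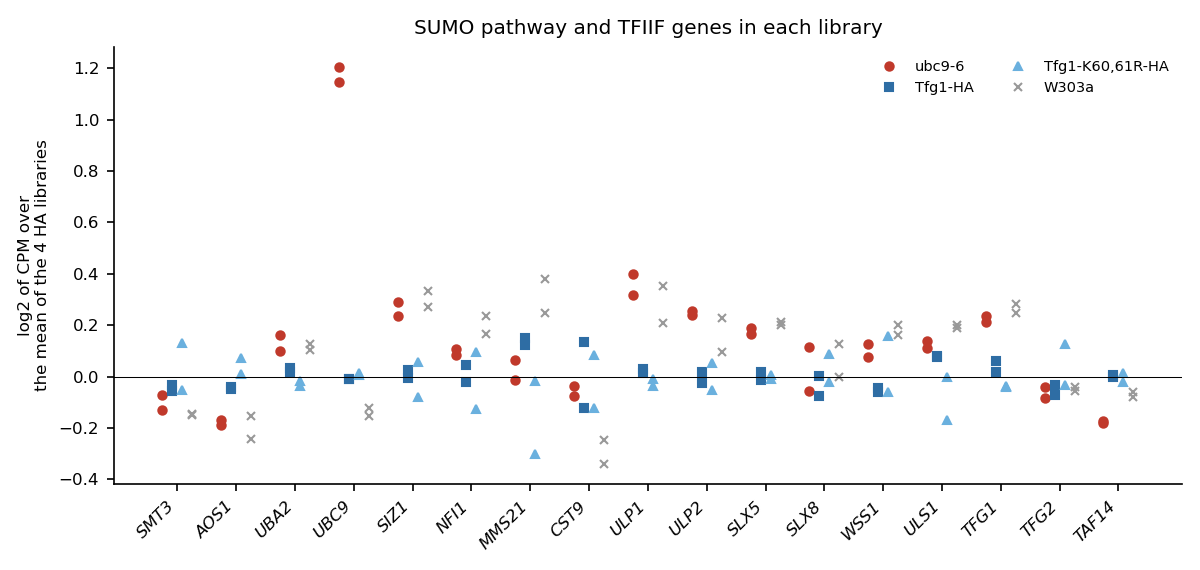
Log2 of the CPM of each library over the mean of the 4 HA libraries for 14 SUMO pathway genes and 3 TFIIF genes, with red circles for ubc9-6, blue symbols for the HA strains and grey crosses for W303a. UBC9 lies above 1 in both ubc9-6 libraries, and the next highest value is that of ULP1 in ubc9-6.

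The study also mapped SUMO on chromatin by immunoprecipitation, and 165 tested genes other than RPGs had such a peak. Of these 37 were higher in ubc9-6 (22.4%) and 51 lower (30.9%), with a median of -0.044, beside 22.3% and 22.8% of all genes. With the trend removed 30 were higher and 47 lower, and without replicate 1 and 2 of ubc9-6 the counts were 19 higher and 34 lower, and 19 higher and 39 lower. *CTR1* and *IMD2* were the members with the largest changes.

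Each named gene that was called had the same direction against each HA strain. *PHO84* differed by -4.46 from Tfg1-HA and by -4.94 from Tfg1-K60,61R-HA, *SPL2* by -5.14 and -5.89, *THI4* by 2.48 and 2.65, *IMD2* by 1.89 and 2.09 and *HTB2* by -0.53 and -0.54. Both contrasts share the ubc9-6 libraries. *HUG1* differed by 1.72 from Tfg1-HA (adjusted p = 0.024) and by 0.38 from Tfg1-K60,61R-HA (adjusted p = 0.49), and *PHO89* by -1.45 (adjusted p = 0.18) and -2.77 (adjusted p = 0.026), all by edgeR. The difference between the HA strains was not called for *HUG1* or for *PHO89*.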

How the data were processed

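Polyadenylated RNA of 4 strains was sequenced from directional libraries, 2 per strain. The submitters' processing notes name HISAT2 2.1.0, featureCounts of Subread 2.0.0, edgeR 3.32.1 and the build sacCer3. The deposited table holds raw read counts per gene, made by the authors with featureCounts on paired reads over exons, without a strand option and without reads that map to several places, so that overlapping genes and near-identical copies (found with BLAST 2.17.0+ at 95% identity or more across 50% of a gene) are uncertain. The deposited tables of the authors' fold changes, p-values and FDR were not used.

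The counts of 6 libraries were fitted with edgeR 4.0.16 in R 4.3.3, after TMM scaling and filterByExpr, with 1 mean per strain and the quasi-likelihood test. Genes were called at an adjusted p under 0.05 (Benjamini-Hochberg, over all 5907 genes tested). CPM of W303a was put on the same scale. The labels do not say that replicates were separate cultures, so p-values measure the spread between these libraries. Alternatives were all 8 libraries, the likelihood ratio test, DESeq2 1.42.0, RLE scaling, other filters, a replicate block, the HA libraries as 1 group, no copied or overlapping genes, and each library left out. Removing a trend over coding length and GC content (splines with 4 degrees of freedom) was chosen after seeing the data. On simulated counts for the contrast with both HA strains (5907 genes), the test called 56 of 67 genes with a 1.5-fold change, 65 of 67 with a 2-fold change, 65 of 66 with a 3-fold change and 15 of 5707 without a change. In the simulation few genes changed, none by less than 1.5-fold, and the HA strains had equal means. The data differ in the first 2 respects, and equal means of the HA strains were not shown in the data. These counts therefore do not give the error rate of the calls.

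Gene lists came from textbook knowledge and the study's SUMO peaks, and the members and lists were chosen with earlier results of these data known. Named genes were all SUMO pathway, TFIIF and marker genes, the 12 highest and 12 lowest called genes that averaged 50 counts or more and did not overlap between groups, and up to 4 called members of each list with the largest changes. Other list members in the text (such as *COS10*, *PHO4*, *STE2* and *VTC1*) were chosen after their values were seen. Gene coordinates and coding lengths came with the deposited counts, and promoter sequences were cut by these coordinates from the S288C reference genome. In the RefSeq annotation of that genome 6030 of 6120 genes matched by name and 6019 of those had the same coordinates. Windows were counted from the coding start.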

Additional observations from a re-analysis of the deposited data

How the results depend on the processing

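Against both HA strains, the number of genes called ranged from 1145 to 3057 when 1 library was left out, and was lowest without either ubc9-6 library. Against Tfg1-HA alone it ranged from 716 to 2667, falling to 1115 and 831 without replicate 1 and 2 of Tfg1-HA and to 716 and 885 without those of ubc9-6. Against Tfg1-K60,61R-HA alone it ranged from 985 to 2685. Requiring a change of more than 1.5-fold left 405 genes, and more than 2-fold 154. Between the HA strains the count ranged from 0 to 196 with a library left out, and DESeq2 called 27. Every other alternative kept the count against both HA strains between 2471 and 2890, and no named gene reversed under any. Lower counts without a library come with fewer samples.

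Replicate numbers did not pair the libraries, since the correlations of replicate differences between strains were -0.02, -0.12 and 0.12. With the replicate block, 2546 genes were called against both HA strains, 1954 against Tfg1-HA, 2316 against Tfg1-K60,61R-HA and 0 between the HA strains. Of 125 named genes, 19 and 22 lost their call without replicate 1 and 2 of ubc9-6, 5 and 3 without those of Tfg1-HA, 4 with the length trend removed (*UBA2*, *ULP2*, *RPC10* and *TAF2*), 3 with DESeq2, 2 with the HA libraries as 1 group and 1 with the block (*HUG1*). Calls were gained for 3 without replicate 2 of Tfg1-K60,61R-HA and 1 with all 8 libraries. For changes that lost their call, the cause was not tested. With 2 libraries against 4 an exact rank test cannot give a two-sided p below 0.133.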

Other observations

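Other gene groups held calls in both directions, beside 22.3% of all genes higher in ubc9-6 and 22.8% lower. Of 34 proteasome genes, 2 were higher and 3 lower, with a median log2 fold change of -0.0087, and none was called without either ubc9-6 library. Of 27 genes for heat shock chaperones, 4 were higher and 10 lower, and 6 were lower without either ubc9-6 library. Of 26 oxidative stress genes, 5 were higher and 13 lower, and 7 were lower without replicate 1 of ubc9-6. Of 29 ergosterol genes, 10 were higher and 4 lower, while without replicate 1 and 2 of ubc9-6 the number higher was 2 and 4. Of 19 multidrug resistance genes, 10 were higher and 2 lower, and without replicate 1 and 2 of ubc9-6 the number higher was 7 and 6. No explanation was tested for any of these counts.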
